A study of Mus musculus with 4 samples.

Results

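The 8 genes described here encode transcription factors of the kidney epithelium. They are Hnf4a, Hnf4g, Pax2, Pax8, Lhx1, Emx1, Esrrg and Tfap2b, out of 21440 protein-coding genes that could be given a strand. The question was whether one of the control libraries, control replicate 1, alone carried open chromatin at these genes, as DNA of kidney cells would give. For each gene, every peak from 20 kb before its 5′ end to its 3′ end was read in each library. The genes were selected on the peak calls of these same 4 lists, whose results were known, so their peaks are described and no test was made on them. A peak in control replicate 1 and in no other library was found at 1 of the 8 genes, Pax2, while 2.26% of coding genes of similar length had such a pattern. The other 7 genes had either no peak in control replicate 1 or, at Hnf4a, a peak in control replicate 2 as well.

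The libraries came from RAW264.7 cells, a wild-type mouse macrophage line that was transformed by a leukaemia virus, profiled by ATAC-seq, in which a transposase cuts open chromatin and tags it for sequencing. Control and esculetin cells alike were loaded for 24 h with DIL-oxLDL, a dye-labelled oxidized form of low-density lipoprotein, at 25 ug/mL. The control group (2 libraries) had the solvent DMSO and no esculetin, and the esculetin group (2 libraries) had 40 ug/mL of esculetin, a plant coumarin. The labels do not say whether the libraries of a group came from separate cultures. Control replicates 1 and 2 held 19595 and 27833 peaks, and esculetin replicates 1 and 2 held 8677 and 12792. The peak names inside the lists labelled esculetin replicates 1 and 2 carry the names E2 and E3, so the replicate numbers of that group are those of the labels and may not be those of the study. The depth, as background coverage, was 6.51 in control replicate 1 and 4.08 to 4.97 in the others. Control replicate 2 stood apart. Of the strongest 10% of its peaks, 56.1% overlapped no peak of another library, whereas this share was 0.668% for control replicate 1, 0% for esculetin replicate 1 and 0.0789% for esculetin replicate 2. The strongest of these private peaks of control replicate 2 lay mostly in pseudogenes and inside coding genes. Genes of the macrophage lineage and surface had a peak in their window in 17, 19, 10 and 16 of 22 cases in control replicates 1 and 2 and esculetin replicates 1 and 2 (77.3%, 86.4%, 45.5% and 72.7%). Over all coding genes other than the 8 kidney factors the shares were 57.1%, 62.5%, 41.1% and 51.2% in the same order, so esculetin replicate 1 was near that background. In a bulk library, a site open in few cells and a site weakly open in all cells cannot be told apart.

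Tubule cells of the kidney are specified by paired-box and LIM-homeobox factors, and their later segments are set by nuclear receptors and AP-2 factors. Pax2 and Pax8 are paired-box factors that start the nephric lineage, and Lhx1 encodes a LIM-homeobox factor that acts beside them. Hnf4a and Hnf4g encode nuclear receptors of the hepatocyte nuclear factor 4 family, known for the absorptive program of the proximal tubule, liver and gut. Esrrg encodes an orphan nuclear receptor tied to mitochondrial metabolism, and Tfap2b an AP-2 factor of the distal tubule. Emx1 encodes a homeobox factor best known from the cerebral cortex, whose paralogue Emx2 is needed for the urogenital system. Such genes are usually silent in macrophages.

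The start sites of the genes are shown first, because no library had a peak at any of them. RefSeq (build GRCm38.p6, equal to mm10 on the primary chromosomes) listed 13 start sites for 7 of the genes and none for Hnf4g. Together with the 5′ ends of the 8 genes this gave 17 positions. No summit lay within 1 kb of any of them in any of the 4 libraries. The 250 bases before 5 of the start sites follow, 5′ to 3′ on the strand of the gene, with each CpG dinucleotide in capitals. Emx1 (chr6:85187681-85187930, plus strand) and Lhx1 (chr11:84525535-84525784, minus strand) were chosen because they held the most CpG of the 13. Both starts of Hnf4a (chr2:163506607-163506856 and chr2:163546905-163547154, plus strand) and the first start of Pax2 (chr19:44746351-44746600, plus strand) lie in the genes that had peaks in control replicate 1.
Emx1: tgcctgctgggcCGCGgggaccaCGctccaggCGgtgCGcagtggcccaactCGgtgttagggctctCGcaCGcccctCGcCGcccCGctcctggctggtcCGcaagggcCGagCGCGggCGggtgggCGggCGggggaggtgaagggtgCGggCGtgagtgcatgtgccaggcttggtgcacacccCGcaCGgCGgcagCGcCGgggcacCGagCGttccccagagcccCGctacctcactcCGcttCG
Lhx1: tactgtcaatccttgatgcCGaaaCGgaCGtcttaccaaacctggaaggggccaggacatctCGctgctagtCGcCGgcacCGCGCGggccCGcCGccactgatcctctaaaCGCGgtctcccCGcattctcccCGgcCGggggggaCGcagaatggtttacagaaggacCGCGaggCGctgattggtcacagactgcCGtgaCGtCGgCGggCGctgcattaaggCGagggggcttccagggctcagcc
Hnf4a first start: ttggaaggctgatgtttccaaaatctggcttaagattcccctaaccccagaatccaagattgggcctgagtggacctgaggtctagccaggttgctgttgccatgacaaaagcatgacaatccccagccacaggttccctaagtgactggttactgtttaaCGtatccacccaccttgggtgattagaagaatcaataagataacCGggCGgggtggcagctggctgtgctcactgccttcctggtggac
Hnf4a second start: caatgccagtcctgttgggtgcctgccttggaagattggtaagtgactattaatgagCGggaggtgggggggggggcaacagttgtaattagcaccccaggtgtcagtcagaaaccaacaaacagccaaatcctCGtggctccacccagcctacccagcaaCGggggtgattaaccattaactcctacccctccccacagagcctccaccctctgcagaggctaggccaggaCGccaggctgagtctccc
Pax2 first start: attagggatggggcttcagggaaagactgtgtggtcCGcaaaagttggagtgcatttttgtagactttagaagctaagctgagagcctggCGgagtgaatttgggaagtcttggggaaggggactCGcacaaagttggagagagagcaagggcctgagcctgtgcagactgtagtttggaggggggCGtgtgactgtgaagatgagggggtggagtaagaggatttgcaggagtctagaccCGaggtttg

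These sequences hold 30 CpG dinucleotides in Emx1 and 26 in Lhx1, but 3 and 4 in the first and second start of Hnf4a and 5 in the first start of Pax2. CpG content is shown because it goes with openness in these lists. Over the 300 bases around a start, the CpG ratio was taken as the number of CpG observed over the number its C and G content would give. Among 4695 start sites of coding genes with a ratio under 0.2, a summit within 1 kb was found for 4.28% by control replicate 1 and 4.22% by control replicate 2, but for 0.98% and 1.92% by the esculetin libraries. Among the 10137 start sites with a ratio of at least 0.6, the shares were 67.7%, 69.6%, 54.2% and 65.5%, and 23.4% had no summit in any library. The kidney factor genes had 8 start sites in that CpG-rich class, 4 of Esrrg, 2 of Pax2 and 1 each of Emx1 and Lhx1. None of the 8 had a summit within 1 kb in any library. The ratio was 0.90 in Emx1, 0.96 in Lhx1 and 1.07 in the second start of Esrrg. Starts of 1 gene share DNA, so these 8 sites are not 8 independent cases. The other 5 start sites belonged to Hnf4a (ratios 0.18 and 0.16), Pax8 (0.29), Tfap2b (0.46) and the first start of Pax2 (0.41), in classes where closed starts are common.

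**Figure D1:**
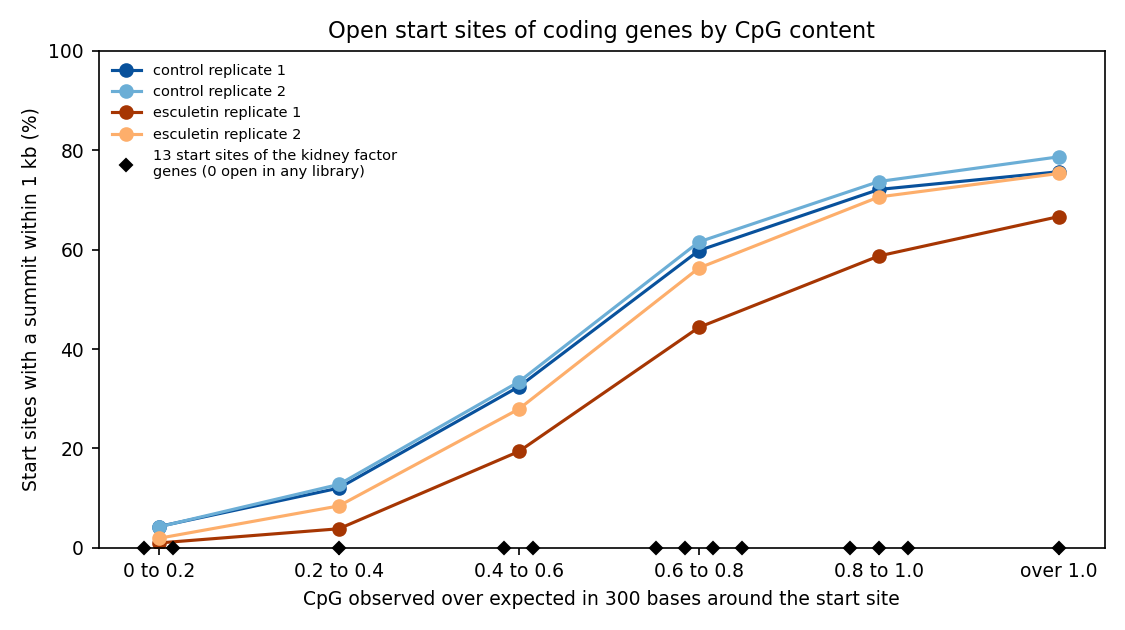
Share of start sites of coding genes with a peak summit within 1 kb (vertical axis, %) in 6 classes of CpG ratio (horizontal axis), 1 line per library. Black diamonds mark the classes of the 13 listed start sites of the kidney factor genes, drawn at 0 because none had a summit within 1 kb in any library, 8 of them at a ratio of at least 0.6.

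Away from the start sites, the windows of the 8 genes spanned 1.19 Mb in all and held few peaks. Control replicate 1 had 3 peaks in them, control replicate 2 had 4, and esculetin replicates 1 and 2 had 0 each. The control group thus averaged 3.5 ± 0.71 peaks (SD, n = 2), and the esculetin group 0 ± 0 (SD, n = 2). All of them came from control libraries, which also have the longer lists. Per Mb of window, the kidney factor genes had 2.53 peaks in control replicate 1 and 3.38 in control replicate 2. Pooled over 17980 other coding genes, windows of similar length had 27.9 peaks per Mb in control replicate 2 and 9.95 in esculetin replicate 1. These were the highest and lowest of the 4 libraries, and control replicate 1 came second. The pool was not weighted by length. Esrrg made up 626 kb of the 1.19 Mb, but only 126 of the pooled genes were similar to it. Those genes had a median of 1 peak in each control library. The pooled density is therefore no length-matched expectation for the 8 windows. Merged where they shared at least 1 bp, the 7 peaks made 6 regions, 2 in control replicate 1 alone, 3 in control replicate 2 alone and 1 in both. Over the genome, control replicate 1 alone held 12.2% of the 36037 regions and control replicate 2 alone 35.1%.

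**Figure D2:**
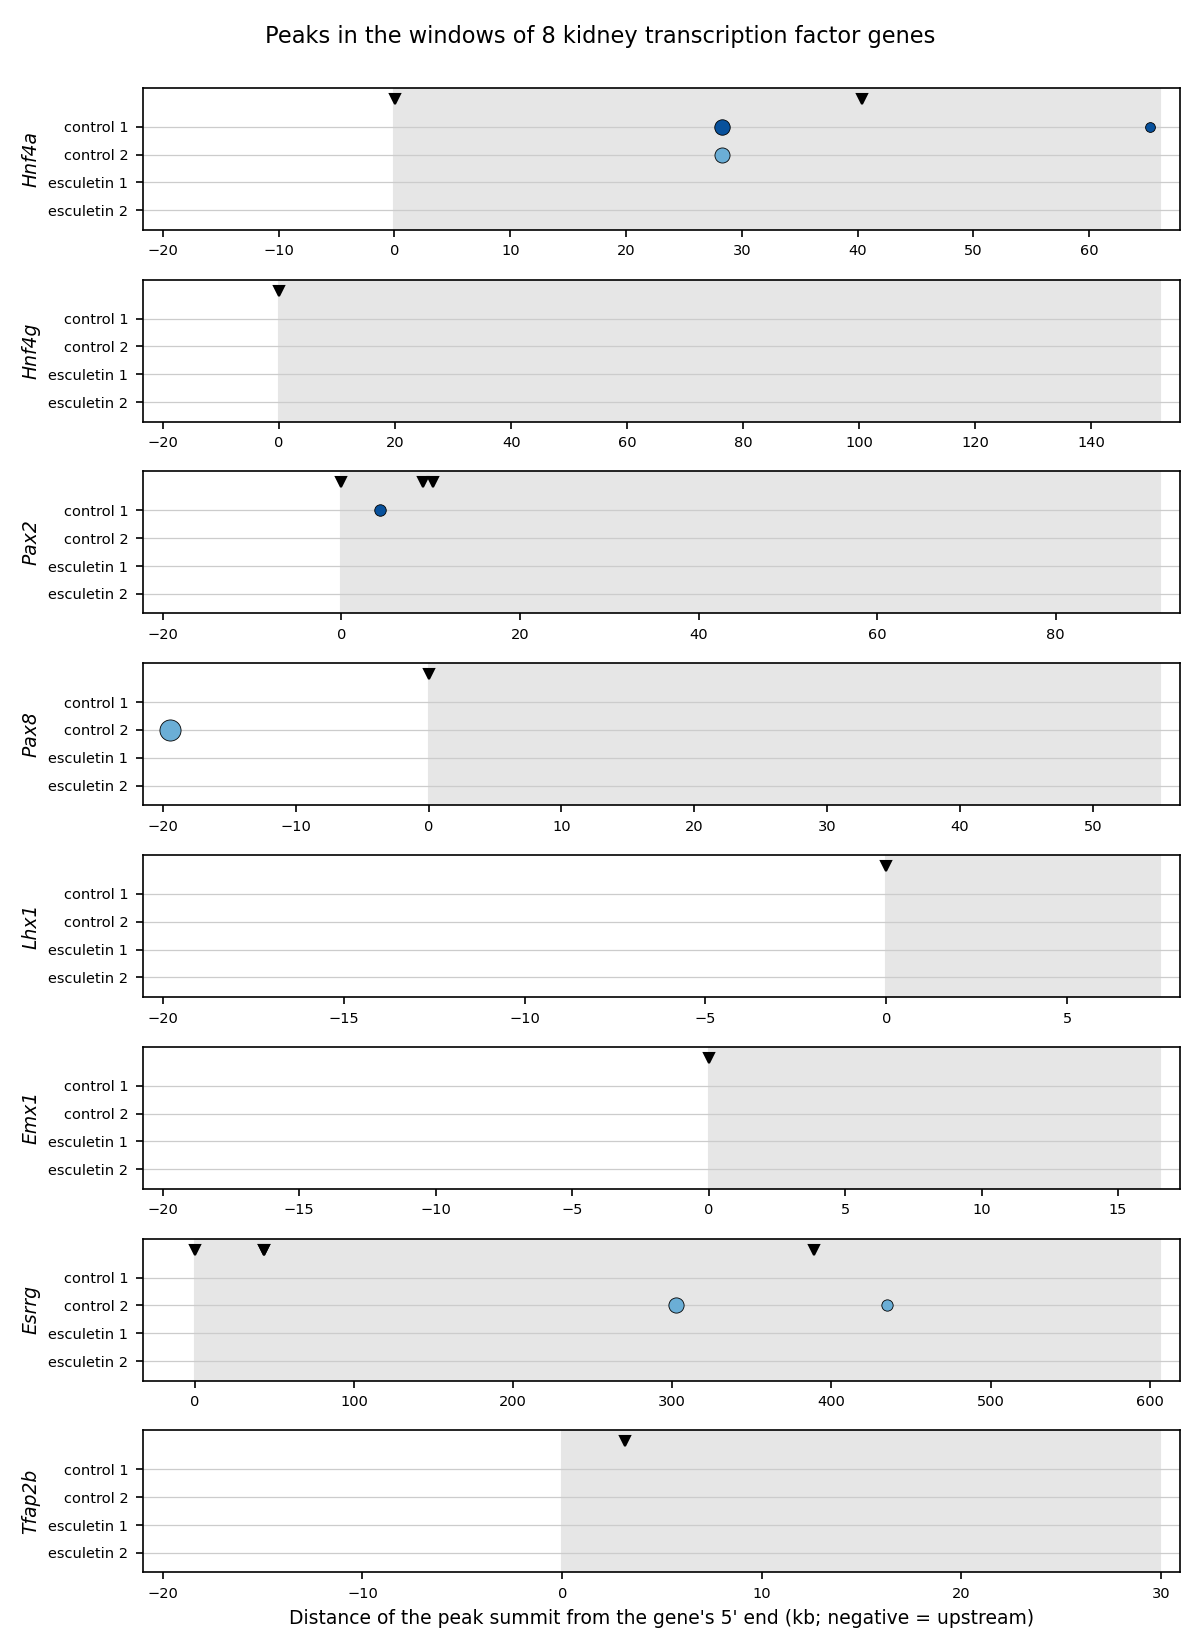
Peaks in the windows of the 8 genes, with distance of the summit from the gene's 5′ end in kb on each horizontal axis and 1 row per library. Grey marks the gene, black triangles its listed start sites (the 5′ end for Hnf4g), and circles are peaks, larger for a higher percentile within the list. The 3 peaks of control replicate 1 lie in Hnf4a and Pax2 and the 4 of control replicate 2 in Hnf4a, Pax8 and Esrrg.

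Pax2 (chromosome 19, 44746601 to 44838269) had 1 peak in control replicate 1 and 0 in control replicate 2, esculetin replicate 1 and esculetin replicate 2. It is therefore the only one of the 8 with the pattern asked for. The peak (44750864 to 44751098, 235 bp wide) had its summit 4.33 kb inside the gene, between the first start and the second, which lies 9151 bp from the 5′ end. MACS2, the peak caller, gives the fold of the summit over its background, with 1 added to both, and a Poisson p, from which the coverage at the summit can be solved. Here it was 25 against a background of 6.51, a fold of 3.46. By −log10 p it stood at percentile 21.3 of its list, so most peaks of that library were stronger. Among all peaks of control replicate 1 between percentiles 20 and 30, 60.5% overlapped a peak of another library. In the other libraries the summit nearest to a Pax2 start lay 173, 174 and 164 kb away in control replicate 2 and esculetin replicates 1 and 2.

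Pax8 (chromosome 2, 24420551 to 24475599), the paralogue of Pax2, had no peak in control replicate 1. Its counts were 0, 1, 0 and 0 in control replicates 1 and 2 and esculetin replicates 1 and 2. The peak of control replicate 2 (24494689 to 24495410) was the strongest of the 7, at percentile 86.0 and with a summit coverage of 46. Its summit lay 19.5 kb before the 5′ end of Pax8, inside the pseudogene Gm13418 and at the edge of the window. With the gene body alone this peak drops out. In control replicate 1 the summit closest to the Pax8 start was 301 kb away.

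Lhx1 (chromosome 11, 84517975 to 84525534) had 0 peaks in its window in each of the 4 libraries. The nearest summits lay 12.0, 12.0, 12.0 and 11.9 kb from its start, past the 3′ end of the gene. In every library that summit was within 52 bp of a start of Aatf, a neighbouring coding gene. Every library therefore called the promoter of the neighbour and none called anything at Lhx1 itself.

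Hnf4a (chromosome 2, 163506811 to 163572907) was the gene with most peaks in control replicate 1, with 2 there, 1 in control replicate 2 and 0 in both esculetin libraries. The stronger one was shared by the controls. Its summits lay 28299 and 28295 bp inside the gene, 4 bp apart. The peak spanned 163534944 to 163535240 in the list of control replicate 1, while control replicate 2 had it at 163535025 to 163535257. The percentiles were 47.8 and 45.4, and the summit coverage was 35 and 28. Its place is 12.0 kb before the second start and within the antisense transcript gene Hnf4aos. Since control replicate 2 had it too, this peak is not one of control replicate 1 alone. The second peak of control replicate 1 (163571895 to 163572094) was called in no other list, was 200 bp wide, and had its summit 859 bp before the 3′ end of the gene. It stood at percentile 9.77, with a coverage of 28 over a local background of 9.46. Below percentile 10 of that list, 37.6% of peaks overlapped a peak of another library, against 77.4% over the whole list. The nearest summits of the esculetin libraries lay 34.1 kb from a Hnf4a start in both, at the neighbouring gene Fitm2.

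Hnf4g (chromosome 3, 3508030 to 3659800), the paralogue of Hnf4a, had 0 peaks in all 4 libraries over a window of 172 kb. The summit closest to its 5′ end was 287 kb away in both control libraries and 370 kb in both esculetin libraries. Esrrg (chromosome 1, 187608510 to 188214885), the longest gene of the group at 606 kb, had 2 peaks in control replicate 2 and 0 in each of the other libraries. Those peaks (187910834 to 187911094 and 188043423 to 188043670) lay 302 and 435 kb inside the gene, 86.9 and 45.7 kb from its nearest start, at percentiles 46.3 and 20.1. At this gene, control replicate 2 and not control replicate 1 stood alone.

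Emx1 (chromosome 6, 85187931 to 85204463) had 0 peaks in all 4 libraries. Its nearest summits lay 33.8 and 32.9 kb away in control replicates 1 and 2, near the pseudogene Spr-ps1, and 50.1 and 50.2 kb away in esculetin replicates 1 and 2, near the start of Spr. Tfap2b (chromosome 1, 19208908 to 19238845) also had 0 in all 4. The nearest summit of control replicate 1 and of both esculetin libraries was 1608 kb away, at the start of the replication gene Mcm3, and that of control replicate 2 was 55.7 kb away. In total 4 of the 8 windows, those of Hnf4g, Lhx1, Emx1 and Tfap2b, had no peak in any library.

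A comparison with genes of similar length shows how much of this an average gene would show. For each of the 8, other coding genes with a window within 20% of its length were taken, 126 for Esrrg to 6605 for Lhx1, or 17980 different genes in all. A peak of control replicate 1 lay in the window of 2 of the 8 kidney factor genes and of 62.3% of these genes. For control replicate 2 it was 3 of 8 against 67.5%, for esculetin replicate 1 it was 0 of 8 against 45%, and for esculetin replicate 2 it was 0 of 8 against 55.8%. No peak in any library was found for 4 of the 8, and for 26.5% of the genes of similar length. These counts are a description, since the genes were selected with the same lists known and the difference was not tested.

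Peaks in control replicate 1 and in no other library occurred in 1 of the 8 kidney factor genes and in 2.26% of the genes of similar length. For control replicate 2 alone, the values were 2 of 8, Pax8 and Esrrg, against 6.18%. Taken by length class, that share was 5.96% for genes similar to Pax8 and 16.7% for genes similar to Esrrg. Esculetin replicates 1 and 2 had 0 of 8 each, against 0.395% and 1.72%. With 8 genes, 1 gene more or less moves the share by 12.5 percentage points. Control replicate 2 had more private calls than control replicate 1 at these genes, as it had over the genes of similar length. Among genes of similar length without any peak in the other 3 libraries, 7.84% had one in control replicate 1, and the corresponding count for the kidney factor genes was 1, Pax2, of 5. Leaving out control replicate 2 moved the count for control replicate 1 from 1 to 2, Hnf4a being the second, while the share of genes of similar length moved from 2.26% to 9.13%. A peak in some control library and in no esculetin library was found for 4 of 8, Hnf4a, Pax2, Pax8 and Esrrg, against 15.3%. Peaks in both controls and in no esculetin library were found for 1 of 8, Hnf4a, against 6.87%. With each list limited to its 8581 strongest peaks, control replicate 1 had 0 peaks left in these windows and control replicate 2 had 1. That peak was the one in the pseudogene Gm13418, 19.5 kb before the 5′ end of Pax8.

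**Figure D3:**
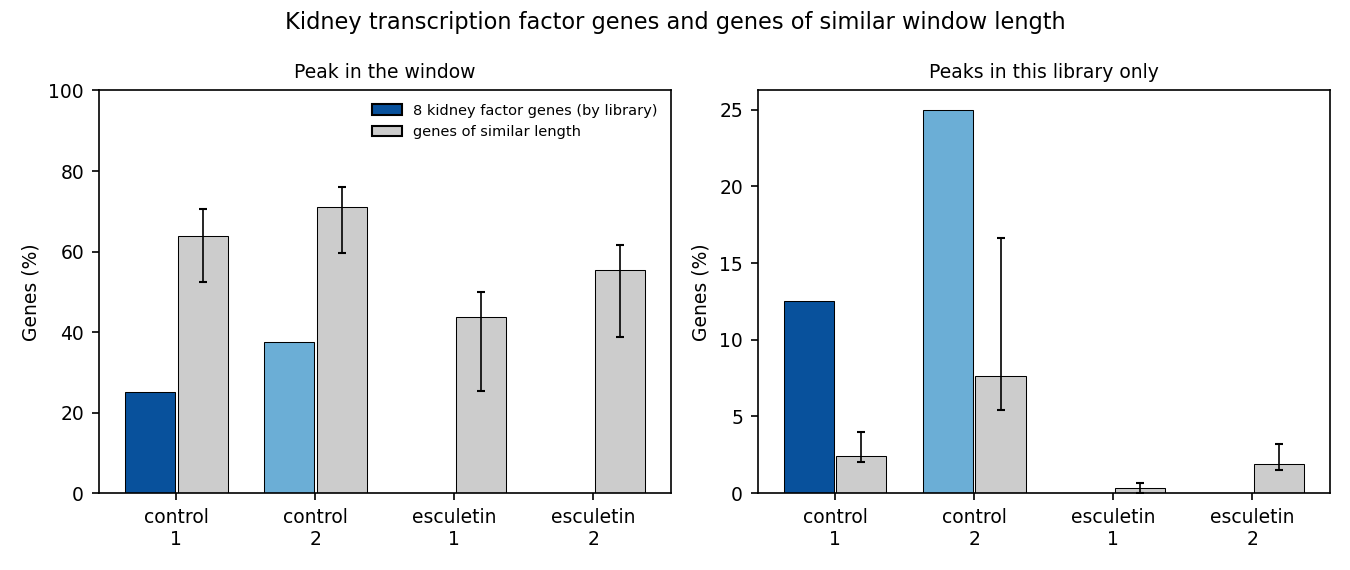
Share of genes (vertical axes, %) with a peak in the window (left) and with peaks in the named library only (right). Coloured bars are the 8 kidney factor genes and grey bars the mean over the 8 length classes, with whiskers from the lowest to the highest class, so that the left panel shows 2, 3, 0 and 0 of 8 genes below the grey bars of every library.

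Depth is given beside these calls, since control replicate 1 was the deepest library. Its 2 private peaks had a summit coverage of 25 (Pax2) and 28 (the 3′ peak of Hnf4a), where the background coverage of the 4 libraries ran from 4.08 to 6.51. Scaled to the background coverage of each other library, the Pax2 summit had a −log10 p of 5.80 to 6.51. The 3′ peak of Hnf4a had 4.79 to 5.14. The lowest −log10 p called in those libraries was 3.68 to 4.16. This scaling is arithmetic that leaves out the noise of counting. The part of depth in these calls was not tested, and a missing call does not show that a site is closed.

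Other genes of the kidney were read in the same way, from lists that were also chosen with earlier results of these data known. Of 29 further kidney transcription factor genes, 9, 15, 5 and 5 had a peak in the window in control replicates 1 and 2 and esculetin replicates 1 and 2, or 31.0%, 51.7%, 17.2% and 17.2%. All 4 shares lay under those of all other coding genes (57.1%, 62.5%, 41.1% and 51.2%). Only 2 of them had peaks in control replicate 1 and in no other library. Among these was Foxd1, which encodes a forkhead factor of the kidney stroma, with its peak 17.7 kb before the 5′ end at percentile 0.523. Over all other coding genes, 2.16% had peaks in control replicate 1 alone, 6.22% in control replicate 2 alone, 0.411% in esculetin replicate 1 alone and 1.69% in esculetin replicate 2 alone. Control replicate 2 alone had peaks at 7 of the 29, among them Six2, Sall1, Irx3 and Foxc1. Control replicate 2 thus had more private calls than control replicate 1 among the further factors, among the 8 and over all other coding genes alike. The strongest private calls of control replicate 2 lay mostly in pseudogenes and inside coding genes. Whether the private calls of the 2 control libraries are alike in kind was not tested.

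Genes for the transport and metabolism of the tubule were read next. Of 31 such genes, a peak lay in the window of 17 and 11 in control replicates 1 and 2 and of 6 and 10 in esculetin replicates 1 and 2. These shares of 54.8%, 35.5%, 19.4% and 32.3% were again under the 57.1%, 62.5%, 41.1% and 51.2% of all other coding genes, so control replicate 1 did not have a peak at more of them than at other genes. In 7 of 31 (22.6%) the peaks were in control replicate 1 and in no other library, against 1 of 31 for each of the other libraries and the 2.16% of all other coding genes. The 7 were Lrp2, the endocytic receptor megalin, Slc27a2, a fatty acid transporter, Aqp1, a water channel, Umod, the urinary protein uromodulin, the organic anion carriers Slc22a6 and Slc22a12, and Kap, a protein of androgen-exposed kidney. A start site was open in control replicate 1 alone in 4 of them, Slc27a2, Aqp1, Slc22a12 and Slc22a6, with summits 377, 512, 479 and 553 bp inside the gene. A start open in control replicate 1 alone was found for 4 of 31 genes of the list and for 1.58% of all other coding genes. The windows of the list held 42 regions, of which 22 were called in control replicate 1 alone, and over the genome that share was 12.2%. Of these 22 peaks, 4 lay within 1 kb of a start of the listed gene itself, 16 further inside the gene and 2 upstream, at percentiles 0.916 to 95.3. At the 8 factors the corresponding number was 2 of 6 regions, both inside the gene and away from starts. Whether the 2 lists differ was not tested.

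Genes of epithelia in general gave 8, 7, 3 and 3 of 17 with a peak in the 4 libraries (47.1%, 41.2%, 17.6% and 17.6%), also under the shares of all other coding genes. For control replicates 1 and 2 alone there were 2 each. The 2 of control replicate 1, the keratin genes Krt8 and Krt18, share 1 peak upstream of both. Factors of other tissues had few peaks in control replicate 1 alone, with 0 of 14 for liver and gut, 1 of 14 for the nervous system (Lhx2), 0 of 12 for muscle and heart and 0 of 11 for lymphocytes. Control replicate 2 alone had 3, 2, 2 and 3 in these lists. Against these 4 lists, with 0 or 1 gene each for control replicate 1 alone, the kidney factors had 1 of 8. No gene of the macrophage list had peaks in control replicate 1 and in no other library. That count could hardly be high, since 19 of the 22 genes had a peak in control replicate 2. By region, 9 of 97 in the list were called in control replicate 1 alone, in 6 genes, against 12.2% over the genome.

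**Figure D4:**
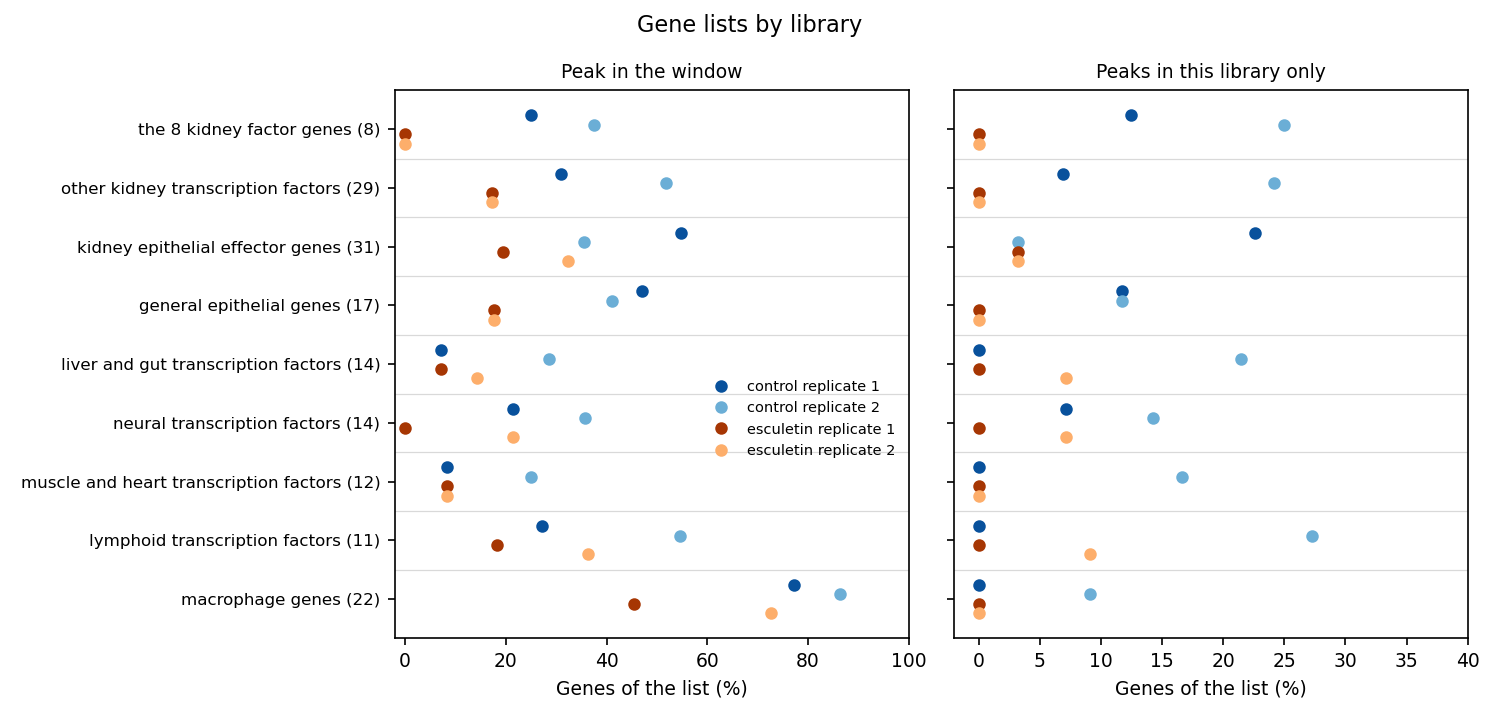
Share of the genes of each list (horizontal axes, %, number of genes in brackets) with a peak in the window (left) and with peaks in the named library only (right), 1 point per library. Among genes with peaks in control replicate 1 only, the kidney epithelial effector genes have the highest share at 22.6%, and the 8 kidney factor genes have 1 of 8.

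The genes whose pattern was most like the one asked for were found by ranking the other 464 coding genes with peaks in control replicate 1 and in no other library by their number of such peaks. Pax2 had 1 such peak, and 52 of the 464 had more. Among the first 10 were Pck1, Slc27a2, Aqp1, Slc31a2, Hao2, Grin2b and Cntn5 with 3 peaks each, and Klk1 and Gm36864 with 2 each. Gm36864 shares both peaks with its neighbour Klk1. Pck1 encodes the gluconeogenic carboxykinase and Hao2 a peroxisomal oxidase, both known from proximal tubule or liver. Grin2b and Cntn5 are long neuronal genes, with windows of 480 and 1291 kb.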

How the data were processed

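The 4 lists of ATAC-seq peaks (RAW264.7 cells, 2 control and 2 esculetin libraries, grouped by the treatment in the labels) were used as deposited. Per the study's methods and the submitters' processing notes, the authors used Trim Galore for trimming, Bowtie2 for alignment to mm10, Sambamba to discard duplicate and ambiguously placed reads, and MACS2 to call peaks, here 1 list per library. Options of the caller, including any shift for the transposase, are not given in the sources used here. The deposited values are a score, the fold of the summit over its background (a ratio), and its −log10 p and −log10 q. They depend on depth and were ranked within a list only.

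The members and gene lists were chosen with earlier results of these data known, so no test was made. Genes were taken from RefSeq GRCm38.p6. The strand came from its table of start sites (17492 of 21887 coding genes) or, by symbol, from GENCODE vM39 (3948 genes, Hnf4g among them). Where both gave a strand, 99.4% were equal. Chromosomes 1 to 19, X and Y were used. A peak counted in a window if at least 1 bp lay in it. Coverage at summits was solved from fold and −log10 p, which was tested on simulated data as was the counting of overlaps. Shares have no interval because neighbouring genes share peaks. The genes named were the 8 members, genes of the lists with peaks or an open start in control replicate 1 alone, and the 10 other genes with most peaks there; Six2, Sall1, Irx3 and Foxc1 were added after their values were seen. Some genes that this rule names are not reported here. The alternatives were equal numbers of top peaks, stricter q, other windows and length classes, a gap of 500 bp in merging, and leaving out each library. Scripts ran under Python 3.11.15 (tables, pandas 2.3.3; Poisson tails, SciPy 1.17.1 with NumPy 2.4.6; plots, matplotlib 3.10.9).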

Additional observations from a re-analysis of the deposited data

How the results depend on the processing

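Values could move with the number of peaks and with the window. With equal numbers of top peaks, control replicate 1 had 0 peaks in the windows of the 8 genes and control replicate 2 had 1, the difference between control and esculetin was 0.5 in place of 3.5 peaks, and both the regions and the genes of control replicate 1 alone numbered 0. With 50 kb upstream, control replicates 1 and 2 had 6 and 7 peaks and each esculetin library had 1, the difference was 5.5, and control replicate 1 alone had 4 regions, the added 2 lying before Emx1. With 20 kb on both sides the counts were 5 and 9 in control replicates 1 and 2 and 1 in each esculetin library, and the difference was 6. The difference ranged from 3 to 4 when one library was left out, the regions of control replicate 1 alone from 2 to 3, and the genes from 1 to 2 (2 without control replicate 2). The share of genes of similar length ranged from 2.45% to 9.13% (without control replicate 2), and was 7.84% among genes with no peak in the other 3 libraries. A −log10 q of at least 2 or 3, the gene body alone and a summit in the window moved none of the counts over the 8 genes by more than 1.5 times, or the difference by more than the SD. Merging over 500 bp was run for the regions and genes of control replicate 1 alone and left both counts as they were. The share of genes of similar length was recomputed with equal top peaks, a −log10 q of at least 2, the gene body alone and length classes of 10% or 50%, and stayed within 1.5 times. Without control replicate 1 its private calls have no value. No paired analysis was possible because the results come from no test, and the replicate numbers are only names. Peaks just under the limit of the caller are not in the lists, so a missing call is not a measured absence.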

Other observations

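The strongest private peaks of control replicate 1 were looked up after the lists had been read. Of the 1946 peaks in the strongest 10% of its list, 13 overlapped no peak of another library. Among them were 2 in Nf2 and 1 each in Klk1, Tyr, Pck1, Slc34a1, Ndrg1, Slc27a2, Gpx3 and Fbp1. Pck1 and Fbp1 encode enzymes of gluconeogenesis, Slc34a1 encodes the phosphate transporter of the proximal tubule, and Gpx3 encodes a secreted glutathione peroxidase made in the kidney. Of the 13 peaks, 2 lay in genes of the transport and metabolism list, Slc34a1 and Slc27a2. The other genes named here were in none of the gene lists. Among those, the peak in Tyr stood at percentile 98.5, those in Nf2 at 97.6 and 91.9, and that in Ndrg1 at 94.6. The Klk1 peak stood at percentile 99.3 with a fold of 8.40. None of the 13 peaks lay in the 8 transcription factor genes. The highest percentile of a private peak of control replicate 1 in their windows was 21.3, in Pax2.

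At Slc34a1 the private peaks were spread along the gene, with summits 1266, 3371 and 13935 bp from the 5′ end, the last at percentile 95.3. Another peak of control replicate 1 there, 5994 bp from the 5′ end, overlapped peaks of control replicate 2 and esculetin replicate 2. Slc34a1 is therefore not a gene with peaks in control replicate 1 and in no other library. At Pck1 they lay 362, 3914 and 5439 bp inside the gene.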
